A study of Homo sapiens with 2 samples.

Results

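The genes described here encode the microRNA silencing complex and the enzymes that destroy the mRNAs it binds. They were chosen as a list of 46 gene symbols by known function, with earlier results of these data known. A probe set was taken where its only gene symbol in the platform annotation was listed or an older name of a listed gene. All 46 were measured, out of 18417 genes with a name on the array. The data came from A549, a human cell line established from a lung adenocarcinoma, and consisted of 2 arrays of RNA recovered with an antibody against Argonaute2 (Ago2). One array was from cells overexpressing miR-130b and the other from cells transfected with an empty vector, so each group had 1 array and both shared the line and the antibody. The labels give no promoter, dose or time of the overexpression. They describe RNA extraction from pieces of tissue with a microRNA kit, so how the RNA of these cultured cells was purified is uncertain.

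MicroRNAs are cut out of long primary transcripts in the nucleus, exported, trimmed to a short duplex and loaded into an Argonaute protein. Argonaute recruits a GW182 protein (TNRC6A, TNRC6B or TNRC6C), which brings in the PAN2-PAN3 and CCR4-NOT complexes. These shorten the poly(A) tail, after which the cap is removed by DCP2 and its helpers and the mRNA body is degraded by the exonuclease XRN1. The genes below follow that order, and every value is the abundance of a gene's own mRNA in the precipitate, not of its protein.

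The microRNA that was overexpressed is shown with others in RefSeq (GRCh38.p14) that carry its seed, bases 2 to 8 counted from the 5′ end. Any mRNA paired through that seed could be held by each of these microRNAs. The list is not a complete set, so a microRNA missing from it may still share the seed. Sequences are written 5′ to 3′ with the seed in capitals.
hsa-miR-130b-3p: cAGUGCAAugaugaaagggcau
hsa-miR-301b-3p: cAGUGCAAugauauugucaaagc
hsa-miR-301a-3p: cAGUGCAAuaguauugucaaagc
hsa-miR-454-3p: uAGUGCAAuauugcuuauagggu
hsa-miR-3666: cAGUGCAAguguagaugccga
hsa-miR-4295: cAGUGCAAuguuuuccuu
The mature miR-130b-3p lies on the plus strand at chr22:21653354-21653375, and the miR-301b-3p sequence lies on the same strand at chr22:21653025-21653047. Among these 6, probe sets with a single gene symbol existed for MIR130B and MIR301A. MIR130B stood at 12.64 on the miR-130b array against 6.66 on the empty-vector array (log2), which is the direction the labels state. MIR301A was at 3.51 and 3.73 on the same arrays, below the median of the olfactory receptor genes (5.86 with miR-130b, 5.77 with the empty vector), which serve here as a mark of array background.

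Values are log2 array values, and a difference is the miR-130b value minus the empty-vector value. With 1 array a group there is no replicate error, test or p-value, and every difference describes these 2 arrays. The 1 available measure of scatter is the disagreement between distinct probe sets of a gene, whose differences varied with a pooled SD of 0.16 (356 genes at or above the median level of named genes). It leaves out variation between cultures and between precipitations. A threshold of 1.3-fold (0.38 on the log2 scale), a little above 2 of those SDs (0.33), is used for counts. The epithelial keratins KRT7, KRT8 and KRT18 were abundant, between 12.92 and 13.48 with miR-130b and between 13.21 and 13.38 with the empty vector. KRT8 (0.10) and KRT18 (-0.029) were nearly level, and KRT7 was lower (-0.29). Of 12 epithelial and lung markers 7 reached the median level (8.64), and EPCAM, NKX2-1, SFTPB, SFTPC and NAPSA did not. CDH1 (-1.12) and ABCA3 (-1.04) of that list were more than 2-fold lower. In the same list 4 markers were higher and 7 lower, and MUC1 (0.42) and KRT19 (0.37) had the largest increases. For other cell types, 1 of 9 fibroblast, 2 of 6 leukocyte and 1 of 5 endothelial markers reached it. All 9 fibroblast and all 5 endothelial markers were higher with miR-130b, most of them under that level. FAP (1.71) rose most among the fibroblast markers and KDR (0.71) among the endothelial ones, and both lay under it. The median difference was 0.37 for the fibroblast and 0.14 for the endothelial markers. Most genes were higher too, with 58.6% of all named genes and 62.3% of the olfactory receptor genes (median 0.072). Summed linear levels on the miR-130b and empty-vector arrays were 1832 and 1373 for fibroblast, 902 and 767 for endothelial, 2090 and 3223 for leukocyte and 34536 and 39081 for epithelial markers. Of the 6 leukocyte markers 4 were higher, CD14 (0.63) the most. CD68, the brightest of them on both arrays, was at 9.96 with miR-130b and 11.14 with the empty vector (-1.18). The fall of the leukocyte sum therefore mostly follows CD68. The part of these shifts in the values below was not tested. Neither array measured the RNA before precipitation or a precipitate without the Ago2 antibody. The amount of an mRNA, its share bound to Ago2 and unbound RNA carried over therefore cannot be told apart.

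The mRNAs of the silencing and decay machinery differed little between the arrays. The largest decrease was that of PAN2, at -0.52, and the largest increase that of DCP2, at 0.46. They were the only members past the threshold, so 1 of 46 (2.17%) was higher by that fold and 1 of 46 (2.17%) was lower by it. Among all named genes 8.96% were higher by 1.3-fold or more and 9.56% lower, and among the 9209 genes at or above the median level these shares were 11.4% and 12.7%. The background at 1.5-fold was 3.65% higher and 4.65% lower, and at 2-fold 1.06% higher and 1.37% lower, and 0 members passed either. After centring on the median of all genes, CNOT3 and LSM5 joined PAN2 as lower members (1 higher, 3 lower), and after quantile normalization or cyclic loess CNOT6 and CNOT8 joined DCP2 (3 higher, 1 lower). The same centring changed the split over all genes to 1271 higher and 2145 lower, against 1651 and 1761 as deposited.

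By sign alone, 25 members were higher and 21 lower, so 54.3% of the members were higher. Of all named genes 58.6% were higher and 40.6% lower, and of those at or above the median level 51.5% were higher and 48.4% lower. The median difference of the 46 was 0.023, against 0.053 over all named genes and 0.010 over those at or above the median level. The typical size of a difference, without its sign, was 0.17 for the members and 0.19 for genes at or above the median level. Within 2 SDs of 0 lay 39 members (84.8%), against 70.4% of those genes. The 7 outside were DCP2, CNOT8, CNOT6 and DGCR8 on the higher side and PAN2, CNOT3 and LSM5 on the lower. Of these 7, 4 belong to the deadenylation step, which holds 14 of the 46 members. Just short of the threshold lay CNOT8 (0.378), CNOT6 (0.369), CNOT3 (-0.346), DGCR8 (0.344) and LSM5 (-0.339). All members except LSM6 reached the median level, and all 46 lay above the 95th percentile of 361 olfactory receptor genes on both arrays.

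**Figure D1:**
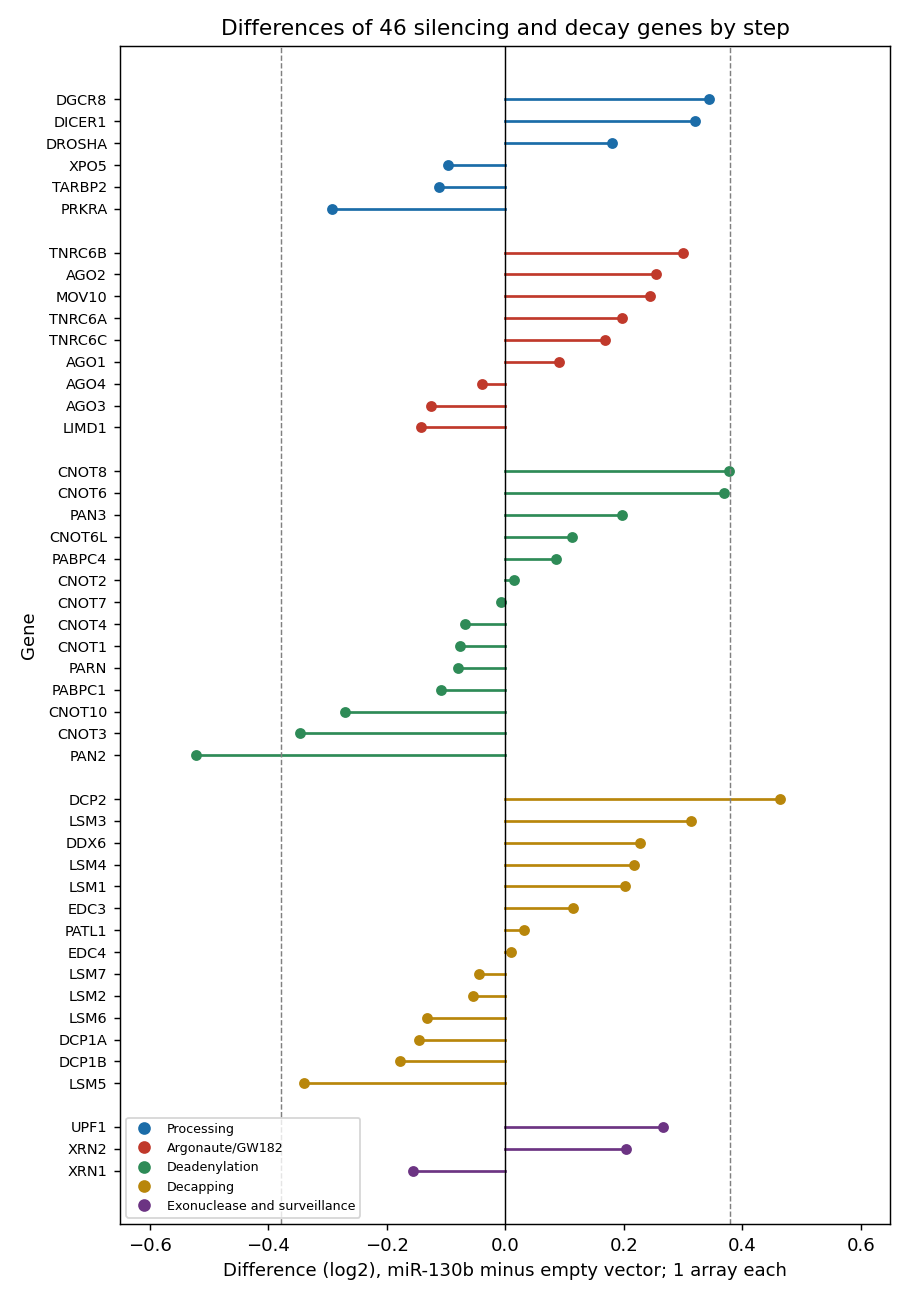
Differences of the 46 genes (horizontal axis, log2 of miR-130b minus empty vector, 1 array each) with 1 point a gene, grouped and coloured by step, and dashed lines at 1.3-fold. PAN2 (-0.52) and DCP2 (0.46) lie past the lines, and each step has members on both sides of 0.

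Among the genes that make microRNAs, both ribonucleases were somewhat higher and the partners of Dicer somewhat lower, each within 2 SDs between probe sets. DGCR8, the RNA-binding subunit that positions the nuclear cut, was at 10.42 on the miR-130b array and 10.08 on the empty-vector array, a difference of 0.34 (1.27-fold). DROSHA, the nuclear ribonuclease it guides, was at 11.41 with miR-130b and 11.23 with the empty vector, a difference of 0.18. XPO5, which exports the cut hairpin, was at 11.70 with miR-130b and 11.80 with the empty vector. Its difference of -0.097 was well inside the scatter between probe sets.

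DICER1, the cytoplasmic ribonuclease that trims the hairpin, was at 12.43 with miR-130b and 12.11 with the empty vector, a difference of 0.32 (1.25-fold). Its double-stranded RNA-binding partners went the other way. TARBP2 was at 9.50 with miR-130b and 9.61 with the empty vector (-0.11), and PRKRA was at 9.32 and 9.62 on those arrays (-0.29). In their differences DICER1 and TARBP2 were 0.43 apart, within 0.46, which is 2 SDs for a pair of genes, and DICER1 and PRKRA were 0.61 apart, beyond it. The step had 3 members higher and 3 lower, with a median of 0.041, and 0 of 6 passed the threshold.

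The 4 Argonaute mRNAs divided evenly. AGO2, which encodes the precipitated protein and the Argonaute best known for cutting fully paired targets, was at 11.66 on the miR-130b array and 11.41 on the empty-vector array (0.25). AGO1 was at 10.71 with miR-130b and 10.62 with the empty vector (0.091). AGO3 was at 10.30 with miR-130b and 10.43 with the empty vector (-0.13). AGO4 was at 9.04 with miR-130b and 9.08 with the empty vector (-0.040). These 4 differences span 0.38, and those of AGO1 and AGO4 are each smaller than 1 SD between probe sets. The array measures the AGO2 mRNA, so these values say nothing about how much Ago2 protein was precipitated.

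All 3 GW182 mRNAs, which encode the scaffolds between Argonaute and the deadenylases, were slightly higher with miR-130b. This held as deposited and after centring, quantile normalization and cyclic loess. The level filters and the brightest probe set could not change their values, as each had 1 probe set. TNRC6B was at 10.91 with miR-130b and 10.61 with the empty vector (0.30, 1.23-fold). TNRC6A was at 11.94 with miR-130b and 11.74 with the empty vector (0.20). TNRC6C was at 9.60 with miR-130b and 9.43 with the empty vector (0.17). Each of the 3 lay within 2 SDs between probe sets, so none stands out singly.

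MOV10, a helicase found with Argonaute, was at 11.20 with miR-130b and 10.96 with the empty vector (0.24). LIMD1, a LIM-domain protein that bridges Argonaute and the cap-binding machinery, was at 10.39 with miR-130b and 10.53 with the empty vector (-0.14). Over the 9 genes of the Argonaute and GW182 step, 6 were higher and 3 lower, with a median of 0.17, and 0 passed the threshold.

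The PAN2-PAN3 deadenylase, which is thought to trim the tail first, had its subunits on opposite sides. PAN2, the catalytic subunit, was at 10.26 on the miR-130b array and 10.78 on the empty-vector array, which is 1.44-fold lower. That difference of -0.52 lay at the 5.66th percentile of all named genes and the 7.31st of those at or above the median level. PAN3, the adaptor that binds GW182, was at 11.44 with miR-130b and 11.24 with the empty vector (0.20). The pair was 0.72 apart, which was the widest gap among 14 partner or paralog pairs compared. Of the alternative settings, only quantile normalization and cyclic loess could change this gap. Under them PAN2 minus PAN3 lay between -0.72 and -0.71. Each gene had 1 probe set, so neither value could be checked against another.

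In the CCR4-NOT complex, the largest increases were in catalytic subunits and the largest decreases in structural ones. CNOT8, a CAF1-type deadenylase, was at 10.91 with miR-130b and 10.53 with the empty vector (0.38). CNOT6, a CCR4-type deadenylase, was at 11.48 with miR-130b and 11.11 with the empty vector (0.37, 1.29-fold). Their close paralogs showed smaller differences.

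CNOT7, the other CAF1-type enzyme, was at 11.16 with miR-130b and 11.17 with the empty vector (-0.0080), a sign that turned after quantile normalization and cyclic loess. CNOT6L, the other CCR4-type enzyme, was at 10.08 with miR-130b and 9.97 with the empty vector (0.11), and its 2 probe sets differed between the arrays by 0.065 and 0.16. CNOT8 and CNOT7 were 0.39 apart, and CNOT6 and CNOT6L 0.26 apart, both within 2 SDs for a pair.

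Of the structural subunits, CNOT3, part of the NOT module, was at 10.19 with miR-130b and 10.54 with the empty vector (-0.35, 1.27-fold lower). CNOT10, which docks on the other end of the scaffold, was at 10.57 with miR-130b and 10.84 with the empty vector (-0.27). CNOT1, the scaffold itself, was at 13.40 with miR-130b and 13.48 with the empty vector (-0.077). CNOT1 and the next gene were nearly level between the arrays. CNOT2, the partner of CNOT3, was at 10.85 with miR-130b and 10.83 with the empty vector (0.014), turning negative after centring.

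CNOT4, a RING ubiquitin ligase linked to the complex, was at 9.79 with miR-130b and 9.86 with the empty vector (-0.068). The 4 catalytic subunits had a median of 0.24 and ran from -0.0080 to 0.38. The 4 structural subunits CNOT1, CNOT2, CNOT3 and CNOT10 had a median of -0.17 and ran from -0.35 to 0.014, so the ranges overlap at CNOT7 and CNOT2. CNOT9 (0.16), a core subunit that binds GW182, and CNOT11 (-0.099), the partner of CNOT10, belong to a further list. With both included the structural median was -0.088 and the highest value 0.16, above CNOT6L and CNOT7. This grouping follows the known roles and was made with the values in view.

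The remaining genes of the step were close to level. PARN, a poly(A)-specific ribonuclease that also trims non-coding RNAs, was at 11.63 with miR-130b and 11.71 with the empty vector (-0.079). PABPC1, the main cytoplasmic poly(A)-binding protein, was at 13.37 with miR-130b and 13.48 with the empty vector (-0.11). PABPC4, its relative, was at 11.80 with miR-130b and 11.72 with the empty vector (0.085). PABPC1 has closely similar copies in the genome, so its value may include their signal. Deadenylation as a step had 6 members higher and 8 lower, with a median of -0.038, and 1 of 14, PAN2, passed the threshold.

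**Figure D2:**
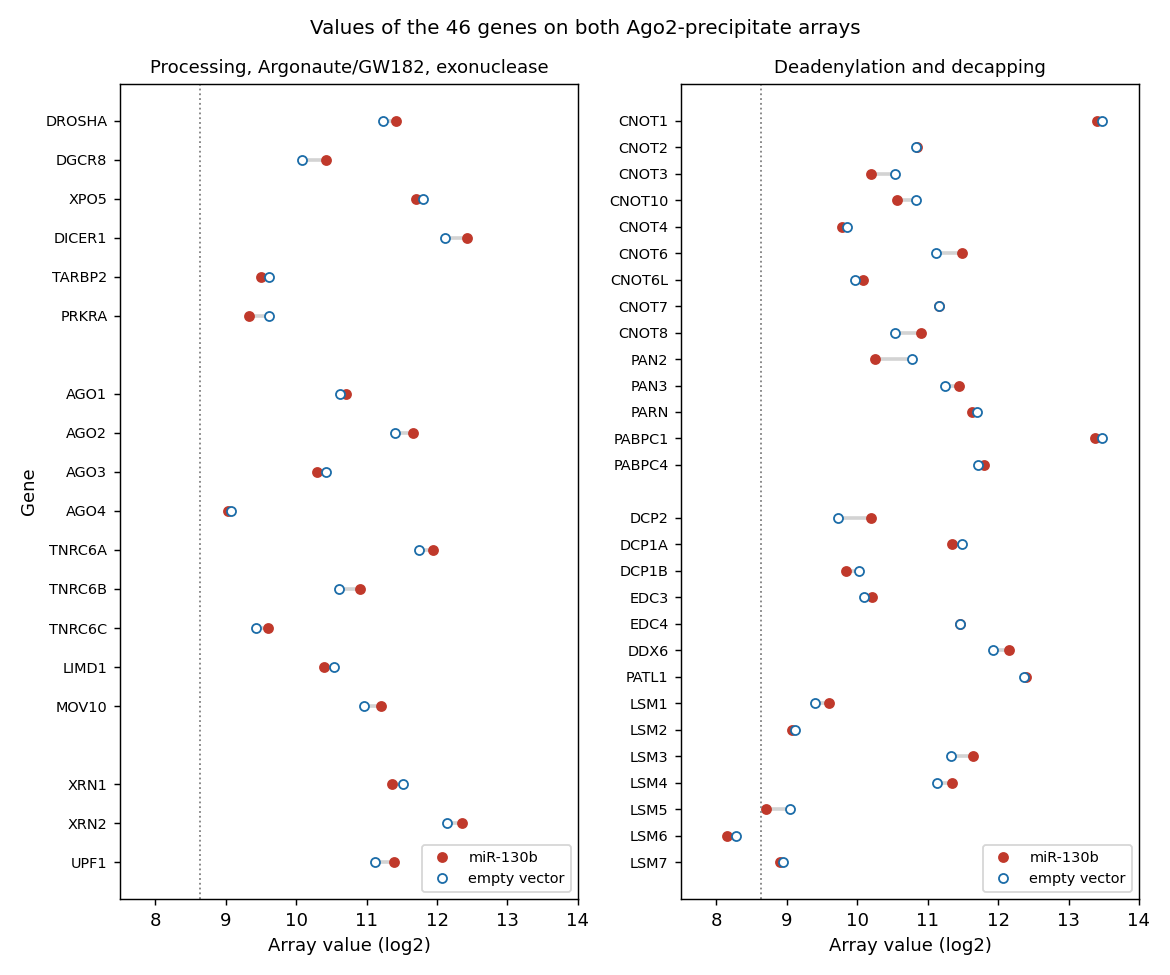
Array values (horizontal axis, log2) of each gene on the miR-130b array (filled red) and the empty-vector array (open blue), 1 array each, with a dotted line at the median level of named genes (8.64). Most pairs of points nearly touch, and PAN2 and DCP2 have the widest gaps. Positions of different genes come from different probes and are not comparable.

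DCP2, which removes the cap, had the largest increase among the members. It was at 10.19 on the miR-130b array and 9.73 on the empty-vector array, 1.38-fold higher. That difference of 0.46 lay at the 94.1st percentile of all named genes and the 92.1st of those at or above the median level. Its activators DCP1A and DCP1B were on the other side of 0, each by about 1 SD between probe sets (0.16). EDC3, which also binds DCP2, was on the same side as DCP2 (0.11).

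DCP1A was at 11.34 with miR-130b and 11.49 with the empty vector (-0.15). DCP1B was at 9.84 with miR-130b and 10.02 with the empty vector (-0.18). DCP2 was 0.61 above DCP1A and 0.64 above DCP1B in its difference. With PAN2 and PAN3, and DICER1 and PRKRA, these were the 4 of 14 pairs more than 2 SDs apart, and 2 of the 4 share the DCP2 value. The share of all gene pairs that far apart was not computed. Only 70.4% of single genes at or above the median level lay within 2 SDs of 0. Such gaps therefore need not be particular to partners.

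The enhancers of decapping differed by less. EDC3, which binds DCP2 and the helicase DDX6, was at 10.21 with miR-130b and 10.10 with the empty vector (0.11). EDC4, a large scaffold of the decapping complex, was at 11.46 with miR-130b and 11.45 with the empty vector (0.010). DDX6, the helicase that links CCR4-NOT to decapping, was at 12.16 with miR-130b and 11.93 with the empty vector (0.23, 1.17-fold). DDX6 was thus the largest of this group after DCP2. PATL1, which connects DDX6 and the LSM ring, was at 12.40 with miR-130b and 12.37 with the empty vector (0.032). The signs of EDC4 and PATL1 turned after centring.

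The LSM ring, which binds the ends of mRNAs with short tails, was mixed, with 3 of 7 subunits higher and 4 lower and a median of -0.045, which was 0.078 without LSM6, the subunit under the median level. LSM3 was at 11.64 with miR-130b and 11.33 with the empty vector (0.31). LSM4 was at 11.35 with miR-130b and 11.13 with the empty vector (0.22). LSM1, the subunit found in the cytoplasmic ring and not in the nuclear one, was at 9.60 with miR-130b and 9.40 with the empty vector (0.20). These 3 were the higher subunits.

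LSM5 was at 8.71 with miR-130b and 9.05 with the empty vector (-0.34, 1.27-fold lower). LSM6 was at 8.15 with miR-130b and 8.28 with the empty vector (-0.13) and was the 1 member under the median level. LSM2 was at 9.07 with miR-130b and 9.12 with the empty vector (-0.055), and its 3 probe sets held identical values, so they count as 1 measurement. The fourth lower subunit, LSM7, was at 8.91 with miR-130b and 8.95 with the empty vector (-0.045). Subunits of 1 ring thus differed by -0.34 to 0.31. Decapping as a step had 8 members higher and 6 lower, with a median of 0.021, and 1 of 14, DCP2, passed the threshold.

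The 2 exonucleases lay on opposite sides of 0, but their gap of 0.36 was within 2 SDs for a pair (0.46). XRN1, which degrades decapped mRNAs in the cytoplasm, was at 11.37 with miR-130b and 11.52 with the empty vector (-0.16). XRN2, its nuclear relative with a role in ending transcription, was at 12.35 with miR-130b and 12.15 with the empty vector (0.20). UPF1, the helicase of nonsense-mediated decay, was at 11.39 with miR-130b and 11.13 with the empty vector (0.27). None of the 3 passed the threshold, and their median was 0.20.

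Compared across the pathway, the step medians were 0.041 for processing, 0.17 for Argonaute and GW182, -0.038 for deadenylation, 0.021 for decapping and 0.20 for exonucleases and UPF1. The Argonaute and GW182 median lay 0.21 above that of deadenylation. This gap was 0.19 to 0.24 under the 6 alternative settings, of which centring could not change it, and 0.13 between the list means. All 5 steps held members on both sides of 0 and their ranges overlapped, so the gaps between medians were smaller than the spread within each step. With 3 genes, the last step's median is the value of XRN2 alone. The medians of processing and decapping turned negative after centring (-0.011 and -0.032) and were 0.18 (3 genes) and 0.12 (6 genes) when genes under the 75th percentile of level were left out.

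**Figure D3:**
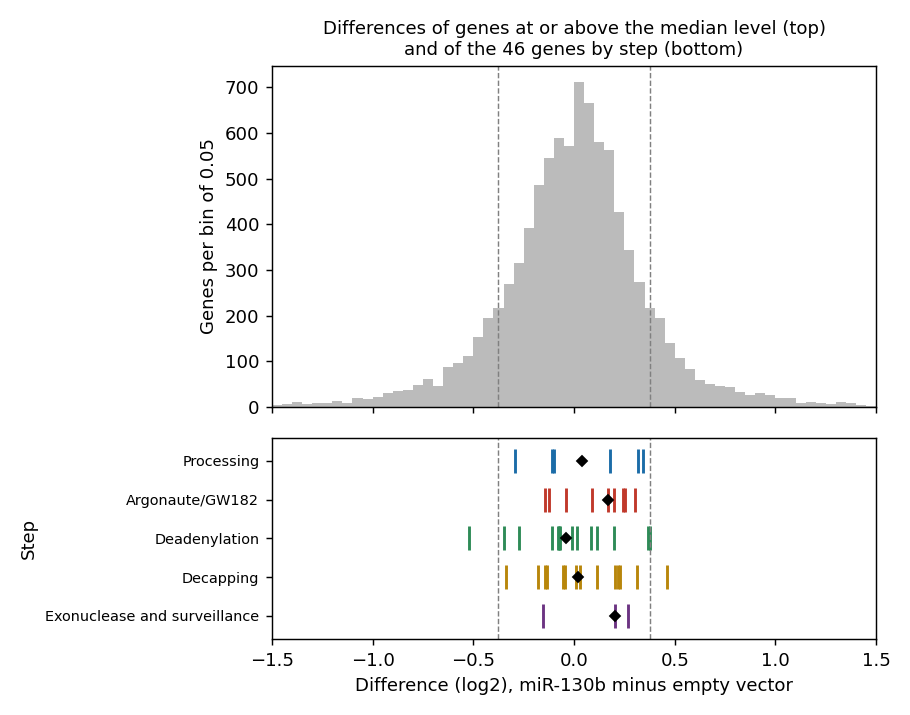
Top, the number of genes at or above the median level (9209) in each 0.05-wide bin of the difference (log2, miR-130b minus empty vector), with 65 genes beyond the axis. Bottom, each of the 46 genes as a tick by step, with the step's median as a diamond and dashed lines at 1.3-fold. Of the 46 ticks, 44 lie between the 10th and 90th percentiles of the upper distribution, and those of PAN2 and DCP2 lie outside.

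A further 80 genes of the same pathways were listed from general knowledge, with earlier results of these data known. Of them 70 were measured through probe sets with 1 gene symbol. Of these 42 (60%) were higher and 28 lower, against 58.6% higher and 40.6% lower among all named genes. Their median was 0.055, against 0.053 over all named genes. Past the threshold were 3 higher and 5 lower genes, or 4.29% and 7.14%, against backgrounds of 8.96% and 9.56%. The factors that steer or assist CCR4-NOT held 5 of these 8. Of its 13 genes 3 (23.1%) were higher and 2 (15.4%) lower by that fold. Among genes at or above the median level these shares were 11.4% and 12.7%.

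TOB1, an antiproliferative protein that tethers the CAF1-type deadenylases, was at 12.52 with miR-130b and 11.81 with the empty vector (0.72, 1.64-fold higher). ZFP36L2 (0.46) and ZFP36L1 (0.42), which bring CCR4-NOT to AU-rich mRNAs, were also past the threshold. NOCT, a CCR4-related enzyme first described as a circadian deadenylase, was at 9.55 with miR-130b and 10.15 with the empty vector (-0.59, 1.51-fold lower). BTG3, a relative of TOB1, was at -0.46, while the next lowest, PAIP2, was at -0.10. The list had 7 of 13 higher and a median of 0.015, so its outer members lie on both sides of an unshifted middle.

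Among P-body and cap-binding genes, AJUBA, a LIM-domain relative of LIMD1, was at 10.98 with miR-130b and 11.63 with the empty vector (-0.65, 1.57-fold lower). It was the largest decrease among the 70. PNRC1, a decapping coactivator, was at -0.22. The related coactivator PNRC2 was at 0.36, and WTIP, the third relative of LIMD1, at 0.30. The list had 8 of 14 higher, with a median of 0.057.

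The exosome and SKI genes, which degrade mRNA from the tail end, had 10 of 18 higher and a median of 0.024. EXOSC1 (-0.44) was past the threshold and EXOSC8 (-0.36) was next, while EXOSC9 was at 0.30 and HBS1L at 0.28. The nonsense-mediated decay genes had 3 of 6 higher and a median of 0.031, with SMG6, an endonuclease, at 0.30 and UPF2 at 0.13, and SMG5 at -0.35 and SMG1, a kinase, at -0.28. SMG1 shares sequence with several pseudogenes, so its value may include theirs. The genes that add bases to RNA tails had 4 of 7 higher and a median of 0.048, with TENT4A at 0.27 and TENT4B at 0.16, and the let-7 antagonist LIN28B, under the median level, at -0.44 and TUT1 at -0.33.

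Accessory factors of nuclear processing and Argonaute loading had 10 of 12 higher as deposited, 8 of 12 after centring and 11 of 12 after quantile normalization. The shares of all named genes that were higher moved likewise, at 58.6%, 50.0% and 60.7% in the same settings. The median of the list was 0.10 as deposited. The Hsp90 co-chaperones STIP1 (0.33) and PTGES3 (0.32) were the highest. SND1, a staphylococcal-nuclease-domain protein, was at -0.22 and ZSWIM8, which triggers microRNA decay through Argonaute turnover, at -0.024. None of the 12 passed the threshold.

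**Figure D4:**
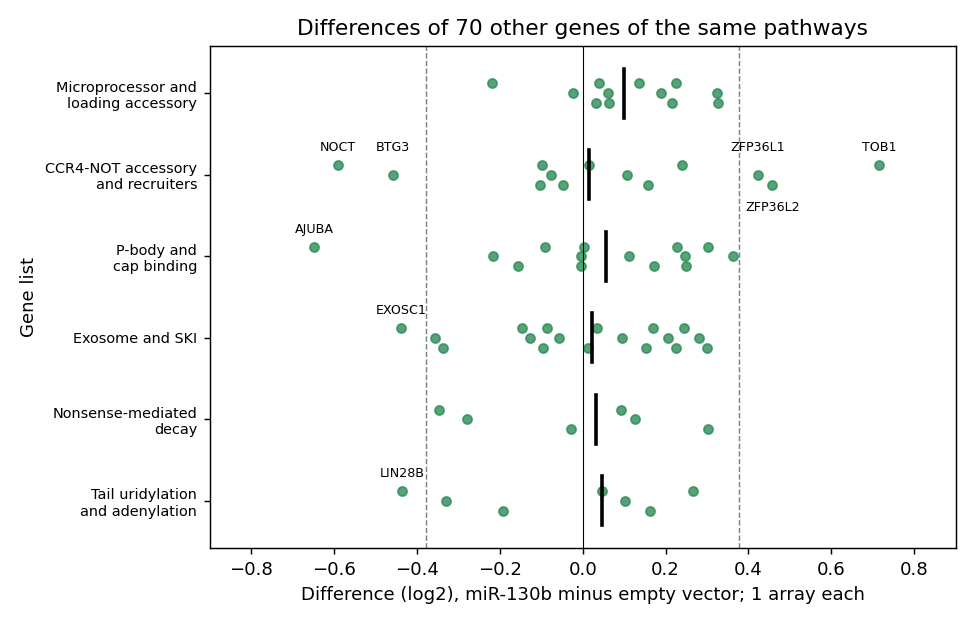
Differences (horizontal axis, log2 of miR-130b minus empty vector, 1 array each) of the 70 other genes, 1 point a gene, in 6 lists with the list median as a black bar and dashed lines at 1.3-fold. The 8 named genes lie past the lines, and every list median lies between 0.015 and 0.10.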

How the data were processed

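RNA precipitated with an anti-Ago2 antibody from A549 cells was labelled as whole-transcript cDNA and hybridised to an Affymetrix array, per the labels' protocols. The deposited values are log2 expression per probe set for 33297 probe sets, with the base taken from their range (1.95 to 14.2). Which software and normalization made them is not stated in the labels. The array medians were equal to 2 decimals (7.77), so differences are relative to the other probe sets. The number of arrays limits the precision.

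Probe sets with 1 gene symbol (19460) were named through the platform annotation and updated by Entrez identifier, which matched for 19429. Those of a gene were averaged, giving 18417 genes. No member shared a probe set with another symbol. No filter was applied to members. The level filter used for backgrounds was the median level, 8.64. The counting step was tested on simulated data. Alternatives were level filters, centring, quantile normalization, cyclic loess, the brightest probe set, other folds and list means. All members are named, with the outer genes of each further list. The members and lists were chosen with earlier results of these data known. Seed matches in transcripts were not analysed here. Python 3.11.15, pandas 2.3.3, R 4.3.3 and limma 3.58.1 were used.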

Additional observations from a re-analysis of the deposited data

How the results depend on the processing

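Level filters leave a gene's difference as it is, the brightest probe set can change only CNOT6L, and centring shifts every gene by 0.053. Of the 92 member differences recomputed with quantile normalization or cyclic loess, all 92 moved by less than the SD between probe sets (0.16), at most by 0.045. The signs of CNOT2, CNOT7, EDC4 and PATL1 turned in at least 1 of the 6 settings. The single higher member became 0 when genes under the 75th percentile of level were left out (31 members remained in the count), since DCP2 was itself under that level. It became 3 after quantile normalization and 3 after cyclic loess. The single lower member became 3 after centring. At 1.5-fold and at 2-fold there were 0 higher and 0 lower. With the level filter at that 75th percentile, 12 members were lower, against 21 of 46, and the median of the nonsense-mediated decay list was -0.15 (4 genes left) against 0.031. The median over the members ran from -0.030 to 0.085. No paired analysis was possible because each group had 1 array. With 1 array a group, variation between cultures, precipitations and arrays is not measured.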
